A study of Mus musculus with 9 samples.

Results

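Dcn, Lum, Postn, Fn1, Sparc, Fbn1, Twist1, Prrx1, Acta2 and Tagln are 10 genes commonly read as markers of mesenchyme and of contractile stromal cells, here without the collagens. They were followed in mouse retinal progenitor cells through every probe set that the platform annotation gives to a single one of these symbols, which selected 20 of the 45101 probe sets on the array. These 20 probe sets cover 9 of the 10 genes. Fbn1, the main fibrillin of extracellular microfibrils, had no probe set listed under its symbol alone and has no value here. A probe set was tested if it lay above the 40th percentile of its own array on at least 3 of the 9 arrays, and 16 of the 20 did, with each of the 9 genes keeping at least 1.

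The study measured 3 groups of 3 biological replicates on Affymetrix 3-prime expression arrays. DKK1-treated ESC-RPCs were retinal progenitors derived from the mouse embryonic stem cell line 46C and given 1 ng/ml recombinant DKK1, a secreted inhibitor of Wnt signalling, for 1 day. Untreated ESC-RPCs came from the same differentiation and received no DKK1. Primary RPCs were dissociated from the neural retina of C57 mice at postnatal day 1, which the series design takes as its negative control.

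Both ESC-RPC groups shared all other steps, which the primary cells did not. Line 46C was made by gene targeting in E14Tg2a.IV cells, so all 6 ESC-RPC arrays derive from a single parental line. Embryoid bodies formed over 3 days in serum-free medium with SB431542, an inhibitor of activin and TGF-beta type I receptors, and were then plated on Matrigel, itself a basement membrane extract. Sox1-positive cells, 35.8% of the culture, were sorted at day 7 and then grown in N2 medium with 20 ng/ml of the growth factor bFGF and 10 µM DAPT, which blocks the cleavage of Notch by gamma-secretase. The RNA was taken after that further culture and not at the sort. The labels call the primary cells cultured in one field and dissociated from retina in another, and whether they were grown before RNA extraction is not settled.

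As background, mesenchymal cells surround epithelia and neural tissue and secrete most of the fibrillar matrix. Decorin and lumican are leucine-rich proteoglycans that coat collagen fibrils. Periostin and fibronectin link cells to that matrix, and SPARC is a secreted matrix protein. TWIST1 and PRRX1 are transcription factors of embryonic mesenchyme. Alpha smooth muscle actin (Acta2) and transgelin (Tagln) belong to the contractile apparatus of smooth muscle, pericytes and myofibroblasts. The neural retina itself is built mainly of neurons and Müller glia, and the mesenchyme around the eye lies outside it.

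Values are MAS5 intensities in arbitrary linear units, 1 per array. A difference is a log2 difference ± SE from a limma fit of all 9 arrays, and a gene was called when its p-value, adjusted over all 13320 genes tested, was below 0.05. The 40th percentile of an array, which lay between 44.7 and 52.9, was used as a working limit of dim signal. For a gene dim on every array of a group, the fold is given as "at least", against those percentiles or the gene's own value where that was higher. Intensities of different probe sets are not comparable with each other, so each gene is followed across arrays only. In bulk RNA, fewer cells of a type and less RNA per cell cannot be told apart.

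The 9 measured genes had nearly the same intensities in DKK1-treated and untreated ESC-RPCs, and 7 of them differed strongly from primary RPCs. Against primary RPCs, Dcn, Lum, Postn, Sparc, Twist1 and Prrx1 were higher in both ESC-RPC groups, Tagln was lower in both, and Fn1 and Acta2 did not pass the test in either. Between untreated and primary cells, 53% of all genes were called, 26.1% higher and 26.9% lower, so a call by itself is common in this comparison. Between DKK1-treated and primary cells, 52.8% were called, 26% higher and 26.8% lower. In each comparison the groups did not overlap for 7 of the 9 genes, beside 60% of all genes for untreated and 59.2% for treated cells. The 2 comparisons share the primary arrays. Lum, Postn, Twist1 and Prrx1 were above the 40th percentile on the 6 ESC-RPC arrays alone, so these 4 genes entered the test only through the cells in which they are high, and the count of calls is a description of the list.

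**Figure D1:**
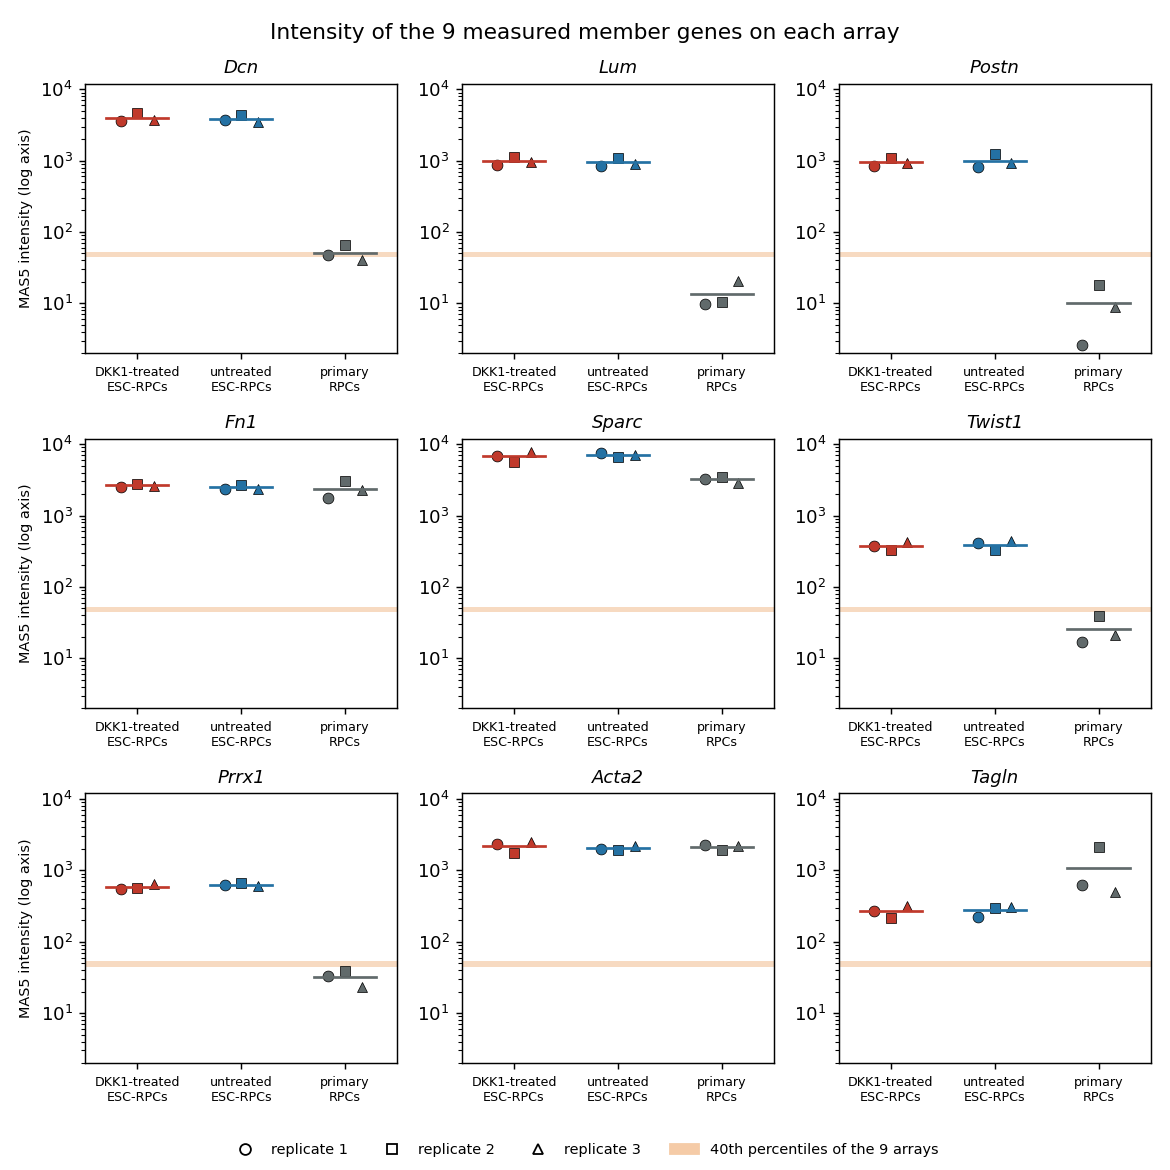
Intensity of the 9 measured genes on each of the 9 arrays, on a log axis in MAS5 units, with DKK1-treated, untreated and primary cells from left to right. Each point is an array, its shape gives the replicate number, the line is the group mean, and the band spans the 40th percentiles of the 9 arrays. Lum, Postn, Twist1 and Prrx1 lie below the band in primary cells, Dcn lies at it, and Fn1 and Acta2 overlap in all 3 groups.

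Among the proteoglycans, Dcn measured 3604, 4694 and 3668 in DKK1-treated cells, 3686, 4431 and 3516 in untreated cells, and 47.2, 65.2 and 41.0 in primary cells. Both ESC-RPC groups overlapped each other and lay far above every primary array, of which 2 exceeded their 40th percentile and 1 did not. The log2 difference was 6.30 ± 0.18 for treated against primary cells (78.9-fold, limma adjusted p = 3.28e-09) and 6.27 ± 0.18 for untreated against primary cells (76.9-fold, limma adjusted p = 3.48e-09). The second Dcn probe set was below the 40th percentile on all 9 arrays and was not tested. It read 18.0 to 41.9 in treated cells, 20.3, 7.90 and 5.81 in untreated cells, and 2.68, 2.42 and 1.12 in primary cells.

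Lum measured 881, 1109.7 and 958 in treated cells, 846, 1101 and 903 in untreated cells, and 9.67, 10.6 and 20.6 in primary cells. All 6 ESC-RPC arrays were bright for lumican and all 3 primary arrays were dim. The group means were at least 20.7-fold higher in treated than in primary cells (log2 6.26 ± 0.26, limma adjusted p = 3.45e-08). They were at least 19.9-fold higher in untreated than in primary cells (log2 6.20 ± 0.26, limma adjusted p = 3.81e-08).

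Of the related leucine-rich proteoglycans, 4 of 10 listed genes passed the filter, and 2 were higher in untreated than in primary cells, 0 lower and 2 not called. Their median log2 difference was 0.90, or 0.41 with dim genes at their bound, beside -0.01 over all genes. For this and every later list, the share over all genes was 26.1% called higher and 26.9% lower in untreated against primary cells. For treated against primary cells it was 26% and 26.8%. A listed gene dim on every array of 1 group passed the filter only through other cells, so the counts of calls describe the lists. Bgn, biglycan, measured 446 ± 48.3 in treated, 444 ± 88.1 in untreated and 116 ± 34.5 in primary cells (SD, n = 3), a log2 difference of 1.95 ± 0.22 between untreated and primary cells (limma adjusted p = 3.83e-05). Prelp was called lower as well without primary replicate 2 (-0.68, limma adjusted p = 0.0212), against -0.15 with all arrays. Ogn, osteoglycin, was at least 1.96-fold higher in untreated cells (limma adjusted p = 9.13e-05). The cornea proteoglycan Kera and the cartilage and tendon genes Fmod, Omd, Aspn, Epyc and Chad did not pass the filter.

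Among the adhesive matrix proteins, Postn measured 853, 1088 and 937 in treated cells, 818, 1247 and 920.1 in untreated cells, and 2.62, 18.3 and 9.01 in primary cells. Every ESC-RPC array was bright for periostin, and the primary values were all dim and spread widely among themselves. The fold was at least 20.2 for treated against primary cells (log2 6.98 ± 0.54, limma adjusted p = 2.58e-06) and at least 20.7 for untreated against primary cells (log2 7.02 ± 0.54, limma adjusted p = 2.44e-06). Since the primary values are dim, the fitted differences move with single arrays. Without primary replicate 1 they were 6.22 for treated and 6.25 for untreated cells, and without primary replicate 2 they were 7.62 and 7.66.

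Fn1, fibronectin, measured 2521, 2811 and 2593 in treated cells, 2365, 2714 and 2385 in untreated cells, and 1784, 3025 and 2308 in primary cells. The 3 groups overlapped, and primary replicate 2 held the highest value of the 9. The log2 difference was 0.19 for treated against primary cells (95% interval -0.16 to 0.54, limma adjusted p = 0.343) and 0.10 for untreated against primary cells (95% interval -0.25 to 0.45, limma adjusted p = 0.622). Without primary replicate 2 the difference between treated and primary cells was 0.38 and passed the test (limma adjusted p = 0.0182). The second Fn1 probe set was not called in either comparison, and there too primary replicate 2 stood highest, at 278 beside 91.2 and 107 on the other primary arrays.

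Sparc was bright on all 9 arrays, at 6925, 5620.1 and 7681 in treated cells, 7473, 6552 and 7034 in untreated cells, and 3269, 3498 and 2897 in primary cells. All 6 ESC-RPC values lay above all 3 primary values. The log2 difference was 1.06 ± 0.11 for treated against primary cells (2.08-fold, limma adjusted p = 2.99e-05) and 1.13 ± 0.11 for untreated against primary cells (2.18-fold, limma adjusted p = 1.94e-05). A second bright probe set gave 1.07 and 1.01 in these comparisons, and the remaining Sparc probe set, close to the 40th percentile on most arrays, was not called in either.

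The promoter of Sparc is shown because TWIST1, a basic helix-loop-helix protein, binds E-boxes, and both genes were higher in ESC-RPCs. The 250 bases before the start site come from RefSeq (GRCm38.p6, chr11:55420081-55420330, minus strand, 5′ to 3′), with the E-boxes, CANNTG on either strand, in capitals.
Sparc: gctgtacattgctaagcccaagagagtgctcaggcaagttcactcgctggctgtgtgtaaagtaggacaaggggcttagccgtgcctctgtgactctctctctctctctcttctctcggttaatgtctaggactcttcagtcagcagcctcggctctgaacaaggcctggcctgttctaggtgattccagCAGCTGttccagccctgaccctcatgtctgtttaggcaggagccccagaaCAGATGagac
The window held 2 E-boxes, CAGCTG 60 bases and CAGATG 10 bases before the start. An E-box was found in 66.2% of 32851 mouse promoter windows of this length, so its presence is common. The windows of Twist1, Prrx1 and Postn, which has 2 listed starts, held 0 E-boxes. The letters TAAT, the core bound by homeodomains such as that of PRRX1, occurred 4 times on either strand in Prrx1's own window, and 54.9% of windows held at least 1.

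Other secreted matrix glycoproteins moved in both directions. Of 15 listed genes 13 were measured, and 8 were higher, 2 lower and 3 not called in untreated against primary cells, with a median of 2.10, or 1.41 with dim genes at their bound. Vcan, the large proteoglycan versican, measured 4147 ± 270.2 in treated, 4235 ± 229.6 in untreated and 244 ± 71.7 in primary cells, and its log2 difference between untreated and primary cells was 4.16 ± 0.18 (limma adjusted p = 5.29e-08). Nid1, a basement membrane linker, differed by 2.32 ± 0.16, Tnc, tenascin C, by 3.42 ± 0.29, and Tgfbi, a secreted adhesion protein, by 2.11 ± 0.19. The 2 lower genes were Ccn2, a secreted growth factor modulator (-0.84), and Mgp, an inhibitor of calcification, which was at least 4.19-fold lower in untreated cells. Spon1 was also called higher in untreated cells without primary replicate 2 (0.62, limma adjusted p = 0.0234).

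Although Fbn1 itself was not measured, 12 of 16 listed genes of elastic fibres and microfibrils were. In untreated against primary cells 7 were higher, 0 lower and 5 not called, with a median of 0.91. Fbln1 and Fbln2, fibulins of elastic fibres and basement membranes, differed by 2.06 ± 0.23 and 2.23 ± 0.19. Emilin1, an elastic fibre glycoprotein, was at least 3.18-fold higher, and Lox, the enzyme that crosslinks collagen and elastin, at least 2.07-fold higher. Both were dim on all primary arrays and entered the test only through ESC-RPC arrays. Fbn2, the fibrillin most active in embryonic tissue, measured 1006 ± 182 in treated, 1081 ± 102 in untreated and 698 ± 187 in primary cells (log2 0.67 between untreated and primary cells, limma adjusted p = 0.0167).

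Both transcription factors were higher in ESC-RPCs than in primary cells. Twist1 measured 379.5, 330.2 and 428 in treated cells, 406, 329 and 438 in untreated cells, and 17.0, 39.0 and 21.3 in primary cells. All 6 ESC-RPC arrays were above their 40th percentile and all 3 primary arrays were below it. Twist1 was at least 7.96-fold higher in treated than in primary cells (log2 3.97 ± 0.28, limma adjusted p = 1.39e-06) and at least 8.20-fold higher in untreated than in primary cells (log2 4.01 ± 0.28, limma adjusted p = 1.28e-06).

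Prrx1 had 6 probe sets, of which 5 were kept. The brightest measured 547, 569 and 644 in treated cells, 618, 663 and 612 in untreated cells, and 33.2, 39.2 and 23.2 in primary cells. The primary arrays were again all dim, and Prrx1 was at least 12.4-fold higher in treated than in primary cells (log2 4.23 ± 0.19, limma adjusted p = 5.37e-08) and at least 13.3-fold higher in untreated than in primary cells (log2 4.34 ± 0.19, limma adjusted p = 4.76e-08). All 5 kept probe sets were called higher in both ESC-RPC groups, with log2 differences of 1.77 to 4.23 for treated and 1.52 to 4.34 for untreated cells. The smallest were those of the 2 probe sets whose ESC-RPC values lay closest to the dim limit.

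**Figure D2:**
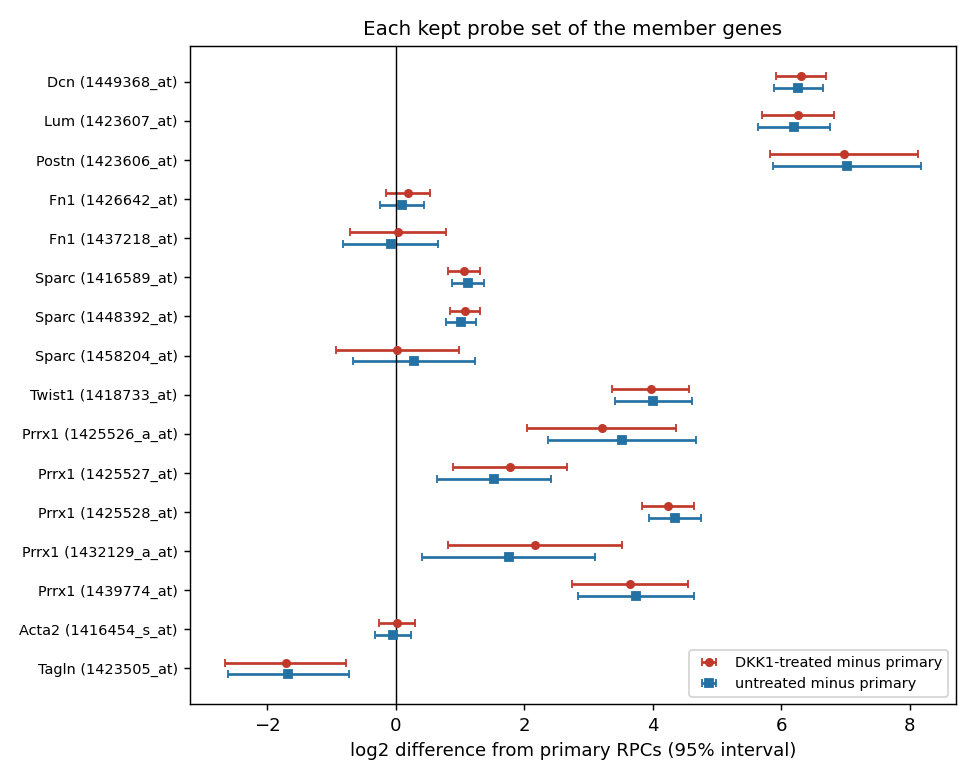
Log2 difference from primary RPCs with its 95% interval for each of the 16 kept probe sets, from a limma fit of all kept probe sets, with treated cells above untreated cells in each pair. The probe sets of Prrx1 all lie right of 0, 2 of the 3 Sparc probe sets lie near 1, both Fn1 probe sets and Acta2 span 0, and Tagln lies left of it.

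Of these 16 probe sets, 11 were called higher and 1 lower in each comparison with primary cells, where 23.3% of all probe sets were called higher and 47.6% either way for treated cells, and 23.4% and 47.5% for untreated cells. With values floored at the 40th percentile, 9 were called higher and 1 lower in each. Probe sets of a gene share its transcripts and are not independent.

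Among other transcription factors of mesenchyme, 12 of 22 listed genes were measured, and 7 were higher, 3 lower and 2 not called in untreated against primary cells. Their median was 2.21, or 0.89 with dim genes at their bound. Among the higher genes, Prrx2, Foxc2, Tbx15, Tbx18 and Osr1 were dim on all primary arrays and entered the test only through ESC-RPC arrays. Foxc1, a regulator of periocular mesenchyme, measured 661 ± 68.5 in treated, 575 ± 78.4 in untreated and 57.4 ± 15.4 in primary cells (log2 3.35 ± 0.20 between untreated and primary cells, limma adjusted p = 3.45e-07). Foxc2 and Tbx18 were at least 3.22-fold and 5.23-fold higher in untreated cells, and Zeb1, a repressor of epithelial genes, differed by 0.69 ± 0.09. The lower genes were Snai2 (-1.36), Foxd1 (-1.82), which also patterns the temporal retina, and Foxf1, dim in untreated cells and at least 1.77-fold lower there. In treated against primary cells 7 were higher and 2 lower. Without primary replicate 2, chosen as an alternative after its values were seen, the median in untreated against primary cells was 1.36.

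Surface proteins of fibroblasts and mesenchyme included 7 higher, 2 lower and 3 not called among 12 measured genes in untreated against primary cells, with a median of 1.42, or 0.97 with dim genes at their bound. Pdgfra, a growth factor receptor of mesenchyme and glial precursors, measured 703 ± 84.5 in treated, 586 ± 28.5 in untreated and 245 ± 77.5 in primary cells (log2 1.30 ± 0.19 between untreated and primary cells). Pdgfrb, its relative on mural cells and fibroblasts, measured 831 ± 109, 776 ± 4.66 and 162 ± 51.7 in the same groups (log2 2.31 ± 0.20). Fap, a protease of activated fibroblasts, and Islr, a secreted marker of mesenchyme, were at least 11.5-fold and 12.5-fold higher in untreated cells. Both, and Lrrc15, were dim on all primary arrays and entered the test only through ESC-RPC arrays. Thy1 (-1.07) and Mcam (-1.77), a mural and endothelial adhesion molecule, were lower. Cd44 was also called higher in untreated cells without primary replicate 2 (0.63, limma adjusted p = 0.00608).

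Neither contractile gene, Acta2 or Tagln, was called higher in ESC-RPCs than in primary cells, and of the matrix genes Fn1 was not either. Acta2 measured 2330.2, 1747 and 2465 in treated cells, 2002.5, 1956 and 2224 in untreated cells, and 2275, 1923 and 2206 in primary cells. The 3 groups overlapped throughout. The log2 difference was 0.02 for treated against primary cells (95% interval -0.27 to 0.31, limma adjusted p = 0.912) and -0.05 for untreated against primary cells (95% interval -0.34 to 0.24, limma adjusted p = 0.773). The name of this probe set marks it as one whose probes may be shared with other transcripts, and the 2 other Acta2 probe sets were below the 40th percentile on all 9 arrays and could not be used as a check.

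Tagln measured 274, 219 and 314 in treated cells, 219.9, 297 and 311 in untreated cells, and 617, 2153 and 501 in primary cells. Every primary array exceeded every ESC-RPC array, and primary replicate 2 was 3.49 times the next primary array. Tagln was 3.28-fold lower in treated than in primary cells (log2 -1.72 ± 0.44, limma adjusted p = 0.00753) and 3.20-fold lower in untreated than in primary cells (log2 -1.68 ± 0.44, limma adjusted p = 0.0084). Without primary replicate 2 the log2 differences were -1.06 (limma adjusted p = 0.00149) and -1.03 ± 0.20 (limma adjusted p = 0.00185).

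The promoter of Acta2 is shown because genes of the contractile apparatus are classical targets of SRF, which binds CArG boxes, and Acta2 and Tagln did not behave alike here. The 250 bases before its start come from RefSeq (GRCm38.p6, chr19:34255374-34255623, minus strand, 5′ to 3′), and the capitals mark CArG boxes that carry a single G or C in their A and T core.
Acta2: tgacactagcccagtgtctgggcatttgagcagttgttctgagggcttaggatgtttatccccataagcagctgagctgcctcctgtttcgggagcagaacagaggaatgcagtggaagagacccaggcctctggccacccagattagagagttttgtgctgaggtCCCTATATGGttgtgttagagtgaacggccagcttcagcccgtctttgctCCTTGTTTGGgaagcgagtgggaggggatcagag
The 2 boxes, CCCTATATGG 84 bases and CCTTGTTTGG 34 bases before the start, overlap no E-box, of which the window held 3, and 0 boxes had a pure A and T core. At least 2 such variant boxes on either strand were found in 0.548% of the 32851 windows, at least 1 in 7.24%, and a box with a pure core in 1.47%. The matches describe these letters and show no binding.

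Other genes of the smooth muscle contractile apparatus were called about as often as all genes. Of 20 listed genes 16 were measured, and 4 were higher, 4 lower and 8 not called in untreated against primary cells, with a median of -0.02. Over all genes 26.1% were called higher and 26.9% lower, so the counts show nothing particular to this list. The lower genes were Myl9, the regulatory light chain of smooth muscle myosin, Mylk, its kinase (-0.89), Smtn, smoothelin (-0.88), and Tagln2, a relative of transgelin (-2.07 ± 0.16, limma adjusted p = 3.26e-06). The higher genes were Cnn3 (0.30), Cald1, caldesmon (0.69), Mrtfa, a coactivator of SRF (0.48), and Actg2, enteric smooth muscle actin (at least 1.66-fold). In treated against primary cells 3 were higher and the same 4 lower. Without primary replicate 2, the counts in untreated against primary cells were 3 higher and 4 lower, with Mrtfa no longer called (limma adjusted p = 0.0953), and the median was 0.18. Myh11, Cnn1, Lmod1 and Myocd, which define differentiated smooth muscle, did not pass the filter.

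Primary replicate 2 stood apart from the other primary arrays at some of these genes and not at others. It exceeded both other primary arrays by over 2-fold at 340 of 13320 genes (2.55%), against 34 to 96 genes (0.255% to 0.721%) for each of the other 8 arrays within its own group. Tagln and, within the dim range, Postn were among the 340, as were 3 of the 16 measured genes of the contractile list, Myl9, Cnn2 and Srf. At Mylk, Smtn, Tagln2 and Acta2 this array did not stand apart. Myl9 measured 741, 657 and 855 in treated cells, 635, 745 and 811 in untreated cells, and 1901, 8749 and 1916 in primary cells. Actc1, cardiac actin, measured 349, 365 and 269 in treated cells, 324, 405 and 235 in untreated cells, and 1396, 7945 and 610 in primary cells. Rgs5, a pericyte marker, was dim on all 6 ESC-RPC arrays and measured 240, 1014 and 408 in primary cells. Srf, chosen after its values were seen, measured 525 ± 5.94 in treated cells, 491 ± 27.1 in untreated cells, and 707, 1602 and 503 on the primary arrays. Without this replicate the log2 differences between untreated and primary cells were -1.39 ± 0.13 for Myl9 (limma adjusted p = 2.12e-05), -1.56 for Actc1 (limma adjusted p = 0.00302) and -0.28 for Srf (limma adjusted p = 0.116). Rgs5 was still called lower without it (limma adjusted p = 4.76e-05). The part that other cells in this replicate have in the level of Tagln was not tested.

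**Figure D3:**
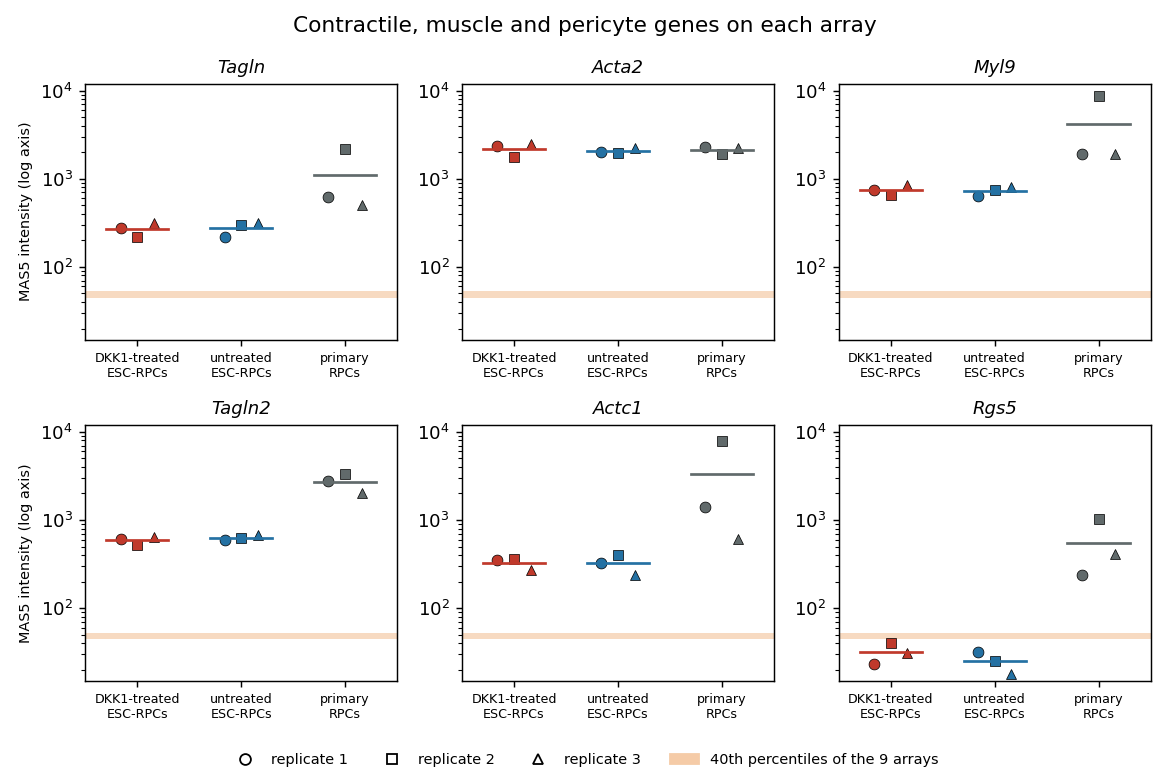
Intensity of Tagln, Acta2, the related genes Myl9 and Tagln2, the cardiac actin gene Actc1 and the pericyte marker Rgs5 on each array, on a log axis in MAS5 units, with DKK1-treated, untreated and primary cells from left to right. Points are arrays, shapes give replicate numbers, lines are group means and the band spans the 40th percentiles of the arrays. Primary replicate 2 is the highest point for Tagln, Myl9, Actc1 and Rgs5 and the lowest primary point for Acta2.

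Genes of the TGF-beta pathway, which in many cells drives both matrix and contractile genes, differed in both directions. Of 12 listed genes 10 were measured, and 2 were higher, 5 lower and 3 not called in untreated against primary cells (median -0.35). The list holds both activators and inhibitors, so these counts give no direction for the pathway. The receptors Tgfbr2 and Tgfbr3 differed by 2.49 ± 0.17 and 2.36 ± 0.22. The ligand genes Tgfb2 (-1.04) and Tgfb3 (-1.36), the signal transducer Smad2 (-0.61) and the inhibitors Smad7 (-0.90) and Skil (-1.32) were lower. Smad3 was also called higher in untreated cells without primary replicate 2 (0.43, limma adjusted p = 0.00762). The pathway inhibitor in the differentiation medium was given to the ESC-RPC cultures and not to the primary cells, so its part and that of the cell source cannot be told apart.

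**Figure D4:**
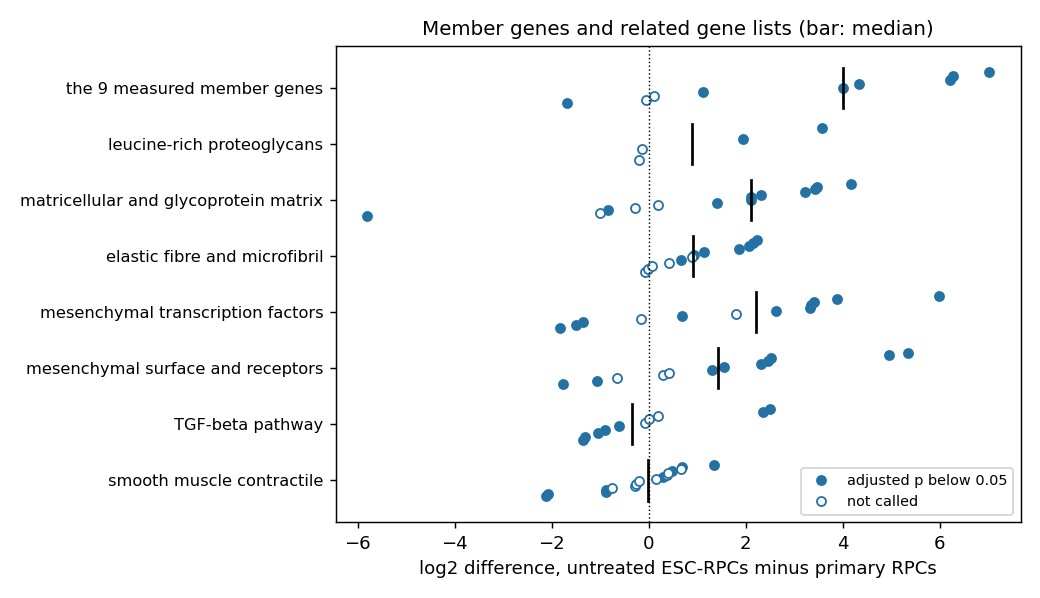
Log2 difference between untreated ESC-RPCs and primary RPCs for the 9 measured genes and the 7 related lists, 1 point per gene, filled where the limma adjusted p was below 0.05, with a bar at each list median. The medians of the matrix, transcription factor and surface lists lie between 0.90 and 2.21, that of the contractile genes at -0.02 and that of the TGF-beta pathway at -0.35.

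Markers of other cell types differed between the same groups. The summed intensity of the 7 measured retinal progenitor markers was 17857 to 18215 in treated cells, 17467 to 18417 in untreated cells and 35447 to 42148 in primary cells. Of these 7, 2 were higher and 5 lower in untreated cells. The higher genes were Sox2 (0.305) and Fgf15 (1.52). Sox2, at 10909.6 in treated and 10363.5 in untreated cells, made up most of the ESC-RPC sums, so these sums mainly follow that gene. The lower genes were Pax6 (-2.93 ± 0.14), Six3 (-2.79 ± 0.31), Lhx2 (-1.57 ± 0.13), Six6 (-6.61 ± 0.33) and Rax (-7.48 ± 0.94), all eye field genes. In ESC-RPCs Rax measured 30.9, 1.66 and 4.88 in treated and 7.47, 50.2 and 27.0 in untreated cells, and Six6 63.2 ± 27.7 and 46.0 ± 12.9, so these 2 defining markers of the labelled cell type lay at or near the dim limit. Sox1, the marker of the sort, measured 2886 ± 333 in treated and 2831 ± 59.8 in untreated cells, at least 59.8-fold above primary cells in untreated cells.

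The other sources of such genes were read from 6 further marker lists. Each sum takes in every listed gene with a probe set, also those that did not pass the filter. Neural crest markers summed to 10810.0 to 12782 in treated cells, 10197 to 12314 in untreated cells and 6208 to 7025 in primary cells, with 3 of 8 genes higher, 2 lower and 3 not called in untreated cells. Ednrb was the largest of these differences (3.61 ± 0.11), at 7864, 7519 and 611 in treated, untreated and primary cells. It made up most of the ESC-RPC sums, so the direction of the sums is that of this gene. Tfap2a (-2.33 ± 0.21) and Tfap2b (-0.96 ± 0.15) were lower, and Sox10 was near the dim limit in all groups. Endoderm markers summed to 7122 to 8579 in treated cells, 6593 to 7356 in untreated cells and 2565 to 3389 in primary cells, with 7 of 10 measured genes higher, 0 lower and 3 not called in untreated cells. Plat (1.04 ± 0.07) and Lamb1 (1.46 ± 0.24), at 2743 and 1960 in untreated cells, made up most of the ESC-RPC sums. Foxa2 was at least 9.79-fold and Sox17 at least 6.29-fold higher in untreated cells, while Afp and Apoa1 did not pass the filter. Foxa2 and Sox17 were dim on all primary arrays, and Gata4, Gata6 and Ttr were not called. Without primary replicate 2, Ets1 of the crest markers and Gata4 and Gata6 of the endoderm markers were also called higher in untreated cells (limma adjusted p = 0.00255, 0.0343 and 0.00492). All 5 measured astrocyte markers were higher in untreated cells. With S100b, which did not pass the filter, they summed to 18384 to 21065 in treated, 18299 to 21125 in untreated and 1689 to 1969 in primary cells. Gja1 and Aldoc, at 9295 and 7944 in untreated cells, made up most of the ESC-RPC sums.

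Vascular and muscle markers had no common direction. Pericyte markers summed to 1015 to 1183 in treated cells, 1120 to 1159 in untreated cells and 405 to 1365 in primary cells. Of the 3 measured, Notch3 (2.98 ± 0.21) and Kcnj8 (at least 1.46-fold) were higher in untreated cells and Rgs5 was at least 9.93-fold lower, while Cspg4, Abcc9, Anpep and Higd1b did not pass the filter. Endothelial markers summed to 763 to 844 in treated cells, 742 to 874 in untreated cells and 6200 to 8023 in primary cells, where Kdr, also a gene of retinal progenitors, made up most of the sum. Cdh5, Tek and Tie1 did not pass the filter. Muscle markers summed to 519 to 582 in treated cells, 411 to 661 in untreated cells and 819 to 8294 in primary cells, with 0 of 3 measured genes higher and 2 lower in untreated cells. The part of other cell types in the levels of the matrix and contractile genes was not tested.

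The comparison of DKK1-treated with untreated ESC-RPCs asked whether a Wnt inhibitor moved these genes within a day. In the fit of 9 arrays 0 of the 9 genes were called, beside 0% of all genes, and 0 of the 9 reached an unadjusted p under 0.05, beside 2.31% of all genes. The groups overlapped for all 9 genes, where 12% of all genes did not overlap. Treated means were higher for 4 and lower for 5 of the 9 on the log2 scale, with a median of -0.04 beside -0.0018 over all genes. All 9 had a limma adjusted p of 0.9997.

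Replicates with the same number tended to move together across these 2 groups. In both, Dcn, Lum, Postn and Fn1 were highest in replicate 2, and Sparc, Twist1 and Acta2 were lowest in replicate 2. With the replicate number as a block, the fit of the 6 ESC-RPC arrays again called 0 of the 9 genes, beside 0.488% of all genes (65 of 13320), and its intervals were narrower. For Dcn the 95% interval of the log2 difference was -0.05 to 0.12, for Lum -0.08 to 0.18, and for Postn -0.19 to 0.11. Fn1, higher after DKK1 in 3 of 3 pairs, had the lowest p of the 9, with a difference of 0.09 ± 0.04 (95% interval -0.004 to 0.18, limma adjusted p = 0.355). For Sparc the interval was -0.19 to 0.06, for Twist1 -0.24 to 0.15, and for Prrx1 -0.29 to 0.07. Acta2 lay between -0.08 and 0.22 and Tagln between -0.36 and 0.28, the widest interval of the 9. An interval that spans 0 bounds the difference and does not show that DKK1 left a gene unaltered.

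**Figure D5:**
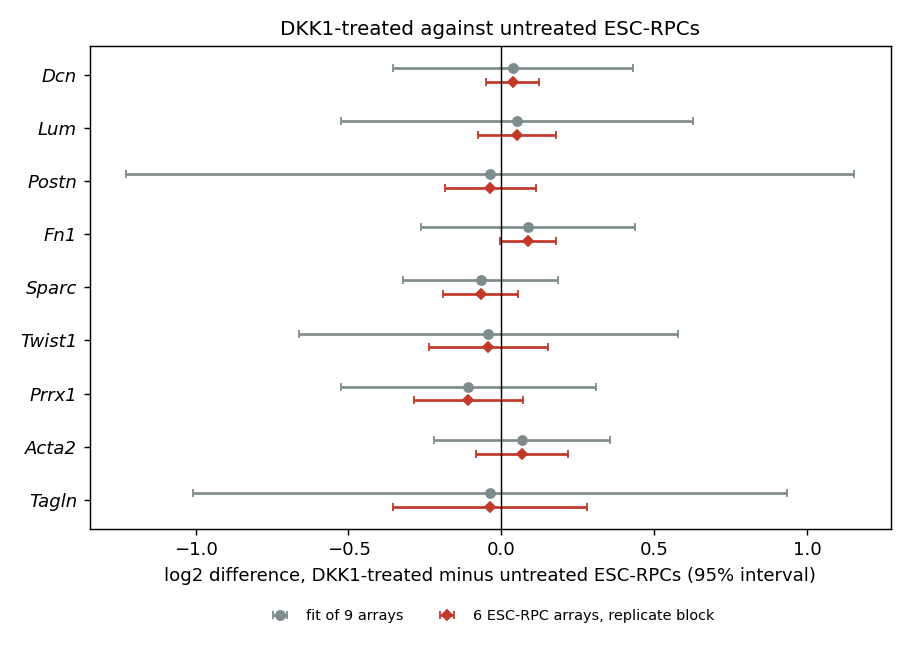
Log2 difference between DKK1-treated and untreated ESC-RPCs with its 95% interval for each of the 9 measured genes, from the limma fit of 9 arrays (grey circles) and from the fit of the 6 ESC-RPC arrays with the replicate number as a block (red diamonds). All intervals of both fits include 0, and the point estimates lie between -0.11 and 0.09.

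At the level of probe sets, 0 of 16 were called between treated and untreated cells, beside 0% of all probe sets. For the Prrx1 probe set with the second highest intensity, treated cells measured 167, 188 and 202 and untreated cells 256, 204 and 236. These did not overlap, but the difference of -0.32 ± 0.53 did not pass the test, and the brightest Prrx1 probe set did overlap (-0.11 ± 0.19). The 7 related lists likewise had 0 genes called between treated and untreated cells, with medians from -0.06 for elastic fibre genes to 0.17 for leucine-rich proteoglycans.

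The genes whose log2 values followed each of the 9 most closely over the 9 arrays were ranked by Pearson's r, as a description. For the 7 genes called against primary cells, such genes share the division between ESC-RPC and primary arrays. Fn1 and Acta2 lack that division. Dcn was followed most closely by Uncx, Otx1 and Col3a1 (r = 0.9998, 0.9997 and 0.9994), Prrx1 by Vcan, Ankrd6 and Tm7sf2, Twist1 by Ntn1, Slc38a4 and Litaf, Lum by Sox21, Wls and Hs3st3b1, and Postn by Cachd1, Adamts12 and Cox5a. More than 900 genes had an r over 0.95 with each of these 5 genes, from 934 for Postn to 1159 for Dcn. Sparc, with 639 such genes, was followed by Naf1, Mrpl12 and Gpd2. Tagln had 135, and Ubr7, Myl9 and Pkp2 led them (r = 0.9945, 0.9924 and 0.98998). Primary replicate 2 was the highest array for both Tagln and Myl9. Fn1 had 0 such genes, with Spon1, a secreted matrix protein, closest at r = 0.9456, and Acta2 had 1, Rnft1 (r = 0.9724). Spon1, like Fn1, was highest in primary replicate 2, at 1395 beside 442 and 777 on the other primary arrays.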

How the data were processed

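RNA from 3 groups of 3 samples was labelled as biotin cRNA and hybridised to Affymetrix 3-prime arrays. Per the labels' protocols RNA integrity was checked before labelling. The authors' deposited table holds 1 linear intensity per probe set and array, made with MAS5 per the submitters' processing notes, which give no version or settings. Each array had a mean of 500.003 after trimming 2% at either end, so scaling had been done before deposit. Log2 was taken with no further normalisation or floor, and the lowest value was 1. Of 45101 probe sets, 64 were controls, 932 matched several genes and 9160 none; 34945 had 1 gene, by the platform annotation with Entrez numbers checked against RefSeq. The filter kept 29052 probe sets, and each of 13320 genes was read from the kept probe set that was brightest on the mean log2 scale. As for Acta2, the probe set names of Snai2, Tgfbi, Cnn3, Sox17 and Gja1, among others, mark probes that may be shared with other transcripts.

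limma 3.58.1 in R 4.3.3 was fitted to all 9 arrays with 1 mean per group and an intensity trend, and two-sided p-values were adjusted by the Benjamini-Hochberg method over all genes, or over all kept probe sets where probe sets are described. The fit was tested on simulated data. The median SE of a log2 difference between treated and untreated cells was 0.15, and arrays give no read depth. The number of arrays limits the precision, as does the fit of 9 arrays, which pools the spread of all 3 groups. For Postn and Tagln this SE was 0.54 and 0.44 in that fit. With the replicate block on the 6 ESC-RPC arrays it was 0.067 and 0.143. P-values measure the spread between these samples, which the labels call biological replicates of a single cell line or mouse strain.

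The members and the gene lists were chosen with earlier results of these data known. All members and the defining markers are named, with up to 4 genes of low adjusted p per list. The 3 genes with the highest correlation to each member are named as well. In some lists a gene of lower adjusted p was passed over, such as Mrc2 of the surface list and Foxd3 of the crest markers. A few genes outside this rule complete a count. Alternatives covered normalisation, filter, pseudocount, floor, probe set choice, intensity trend, arrays in the fit, replicate block and leaving out each array. Deviations from the group means of same-numbered treated and untreated arrays correlated at 0.123 to 0.318 across genes, against -0.234 to 0.0681 for different numbers. All 3 same-number values exceeded 0.1, so these arrays were taken as paired; the labels do not state it. With primary arrays the same-number values were below 0. The 3-prime over 5-prime signal ratio was 1.35, 1.34 and 1.24 for Actb and 0.779, 0.763 and 0.742 for Gapdh in treated, untreated and primary cells. Array log2 profiles correlated at 0.975 to 0.985 between treated and untreated cells and 0.825 to 0.836 between ESC-RPC and primary arrays.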

Additional observations from a re-analysis of the deposited data

How the results depend on the processing

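Against primary cells, 7 of the 9 genes were called under each alternative for both ESC-RPC groups, except that Fn1 made 8 for treated cells without primary replicate 2, and no called direction reversed. The uncalled differences of Fn1 and Acta2 from primary cells took either sign across alternatives, from -0.09 to 0.29 for Fn1 and from -0.12 to 0.02 for Acta2 in untreated cells. Of the member probe sets, 12 called in each comparison became 10 with the floor or with a filter at the 60th percentile, and 11 for untreated cells in the fit of 6 arrays. With each array left out in turn, 11 to 12 were called for untreated and 11 to 14 for treated cells. Between treated and untreated cells 0 members were called under any alternative, while the count over all genes, 0 in the fit of 9 arrays, was 1 without the intensity trend and 65 (29 higher, 36 lower) with the replicate block on the 6 ESC-RPC arrays. The block changed no other call on the members. The member median between untreated and primary cells, 4.01, was 2.88 with log2(value + 32), 3.04 with a floor at the 40th percentile and 2.98 when the probe sets of each gene were averaged, and 3.75 to 4.35 when each array was left out in turn. For treated against primary cells, 3.97, it was 2.84, 2.99 and 3.00 under these settings and 3.71 to 4.31 with arrays left out. The first 2 settings compress low values by construction. In the third, Prrx1, whose weaker probe sets lower its average, became the middle gene in place of Twist1. Leaving out primary replicate 2 moved the fitted Tagln and Postn folds by over 1.5 times, and leaving out primary replicate 1 that of Postn, as given above. Genes called over the whole array ranged from 5942 to 7286 for untreated and from 5931 to 7308 for treated against primary cells with arrays left out. Signal near the dim limit leaves the size of the differences of Lum, Postn, Twist1 and Prrx1 from primary cells known only as a lower bound. Dcn lay at that limit in primary cells, so its fold is uncertain too. Across alternatives its log2 difference from primary cells was 5.56 to 6.45 for untreated and 5.60 to 6.49 for treated cells.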

Other observations

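The probe sets that failed the filter, the second of Dcn, 1 of Prrx1 and 2 of Acta2, were dim on all 9 arrays and carry no test. The coefficient of variation in treated, untreated and primary cells was 5.72%, 7.87% and 26.3% for Fn1, 17.5%, 6.95% and 8.73% for Acta2, and 17.7%, 17.8% and 84.6% for Tagln. For Postn it was 12.4%, 22.5% and 79.0%, the primary values all being dim. Cnn2, a calponin of the contractile list chosen after its values were seen, measured 1074 ± 91.1 in treated cells, 1068 ± 125 in untreated cells, and 1013, 4488 and 467 on the primary arrays, with replicate 2 again the highest. Without that array its log2 difference between untreated and primary cells was 0.63 (limma adjusted p = 0.0656).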
